A study of Mus musculus with 12 samples.

Results

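Histone genes named by cluster or as linker histones were compared in the mouse retinal pigment epithelium (RPE), the pigmented cell layer behind the photoreceptors, between wild-type (WT) and rd6 mice at 1 mo of age. The members were all genes whose symbol begins with H1f, H2ac, H2bc, H3c or H4c followed by a digit and whose mean over the 12 libraries was at least 1 normalized count. Of 28591 genes listed, 59 bore such a symbol and 55 met the limit, namely 8 linker histone (H1), 14 H2A, 13 H2B, 10 H3 and 10 H4 genes. Most are replication-dependent cluster genes, but *H1f0*, *H1f10* and *H1f11-ps* lie outside the clusters, and *H1f11-ps*, *H2ac5-ps* and *H2ac14* are annotated as pseudogenes. Just outside the limit were *H1f8*, with a mean of 0.580, and *H2bc18*, with 0.425, and just inside it were *H2ac14*, with 1.25, and *H2ac5-ps*, with 1.31.

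The data are RNA-seq of total RNA from 6 WT (C57BL/6J) and 6 rd6 (Mfrp rd6/rd6) samples, each taken from the RPE of both eyes, with 28907262 to 33152725 reads on genes per library. The rd6 mice are homozygous for a germline mutation of *Mfrp*, which encodes a membrane protein of the RPE, so every cell of the eye carries it. *Mfrp* itself ranged from 30132 to 45442 normalized counts in the WT libraries and from 20442 to 29732 in the rd6 libraries, with a log2 difference of -0.63 (SE 0.11, limma q = 0.00126). None of the 14 RPE marker genes examined was at 0 in all libraries, and their summed level was 1542878 to 2235315 in WT and 1478463 to 1952185 in rd6. Of these 14 genes, 6 were lower in rd6 and 1 was higher (limma, q below 0.05), where 11.6% of all genes tested were lower and 11.4% higher. The median log2 difference of the 14 was -0.27. The lower ones were *Lrat* (-0.98), *Rgr* (-0.88), *Rpe65* (-0.79), *Mertk* (-0.50), *Rlbp1* (-0.46) and *Kcnj13* (-0.40), and the higher one was *Dct* (0.59). In RNA from a whole tissue layer, fewer cells of a type and less RNA per cell cannot be told apart.

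Histones package DNA into nucleosomes, in which H2A, H2B, H3 and H4 form the core particle and H1 binds the linker DNA. The replication-dependent genes lie in clusters, lack introns and are transcribed mostly in S phase, and their mRNAs end in a conserved stem-loop, bound by the protein SLBP, in place of a poly(A) tail. Resting cells also make replacement histones and polyadenylated mRNAs from some cluster genes, and the mature RPE is a layer of cells that rarely divide.

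The stem-loop is the feature that marks the 3' end of these mRNAs, and it is shown here because it separates the H4 genes from the rest. A 16-base match with a 6-base stem and a 4-base loop (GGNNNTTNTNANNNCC, transcript strand, with the stem arms complementary) was found in the annotated transcripts of 35 of the 55 members, and in 35 of 21899 other protein-coding genes (0.16%). It was found in 4 H1, 7 H2A, 8 H2B, 7 H3 and 9 H4 genes. All 26 matches outside H4 had the stem GGCTCT, whereas the H4 genes had GGCCCT (7 genes) or GGTCCT (2 genes). Below, with 5 bases on either side, are those of genes that the results turn on, followed by 2 whose expression was not called different, with the stem arms in capitals.
H4c8: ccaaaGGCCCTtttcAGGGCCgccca
H4c4: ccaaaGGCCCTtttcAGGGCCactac
H4c14: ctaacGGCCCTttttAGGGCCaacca
H4c11: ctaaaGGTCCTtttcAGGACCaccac
H3c4: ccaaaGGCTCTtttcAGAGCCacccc
H3c8: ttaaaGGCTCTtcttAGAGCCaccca
H2bc11: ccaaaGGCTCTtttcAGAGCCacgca
H2bc3: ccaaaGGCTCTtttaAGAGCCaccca
H1f4: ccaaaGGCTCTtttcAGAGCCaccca
H1f2: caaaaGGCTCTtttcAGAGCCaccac
H2ac19: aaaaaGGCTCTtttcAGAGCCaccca

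In GRCm38 the 16 bases of *H4c8* are at chr13:23531458-23531473 (+), those of *H4c4* at chr13:23581950-23581965 (+), those of *H4c14* at chr3:96262939-96262954 (-) and those of *H1f4* at chr13:23621782-23621797 (-), all within annotated exons. *H1f4* and *H1f2* shared the stem and loop, and differed in the bases on both sides. The annotated transcript ran on for 46 bases after the stem-loop in *H4c8*, 770 in *H4c4* and 1153 in *H1f4*. No match was found in 20 members, among them *H1f0*, *H2bc4* and *H2bc21*, and some of these are annotated over little more than the coding sequence.

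Of the histone cluster genes abundant enough to test, 16 of 38 were lower in the rd6 RPE than in WT and 22 did not pass the test, among them the 3 most abundant (*H1f0*, *H2bc4* and *H1f2*). Differences were tested with limma on log2(normalized count + 1) in the 17768 genes averaging 10 or more normalized counts, and q is the Benjamini-Hochberg adjusted p over all of them. Of the 55 members, 38 entered this fit, in which limma called the 16 lower at q below 0.05 and 0 higher, where 11.6% of all genes tested were lower and 11.4% were higher. At an unadjusted p below 0.05, 19 were lower and 0 higher with limma and edgeR, and 20 lower and 0 higher with DESeq2. H4 genes made up 7 of the 16 (of 9 tested), H2B genes 4 (of 10), H3 genes 3 (of 8), H2A genes 1 (of 6) and H1 genes 1 (of 5).

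Of the 16, 11 differed by at least 0.81 on the log2 scale, the larger limit that the study set for a change. This holds for 2.12% of all genes in that direction and for 4.69% in the other, in which there was no member. In 10 of the 38, all rd6 libraries were below the lowest WT library, against 5.67% of all genes, and in 0 of them were all above the highest, against 5.77%. The log2 difference was below 0 in 34 of 38 members and in 49.3% of all genes. Its median was -0.55 over the members (range -1.44 to 0.36), and 0.0049 over all genes. By histone type, the median was -0.83 for H4, -0.83 for H3, -0.31 for H2A, -0.24 for H2B and -0.00 for H1. The differences between types were not tested.

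The share of genes called depends on their level. Among genes averaging 300 normalized counts or more, 4 of 10 members were lower, against 16.3% of all genes of that level. Between 50 and 300, it was 5 of 12 members against 6.21%, and between 10 and 50 it was 7 of 16 against 4.98%. The count tests of edgeR and DESeq2, run on the reads recovered from the normalized values, each called the same 16 members lower among these 38.

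**Figure D1:**
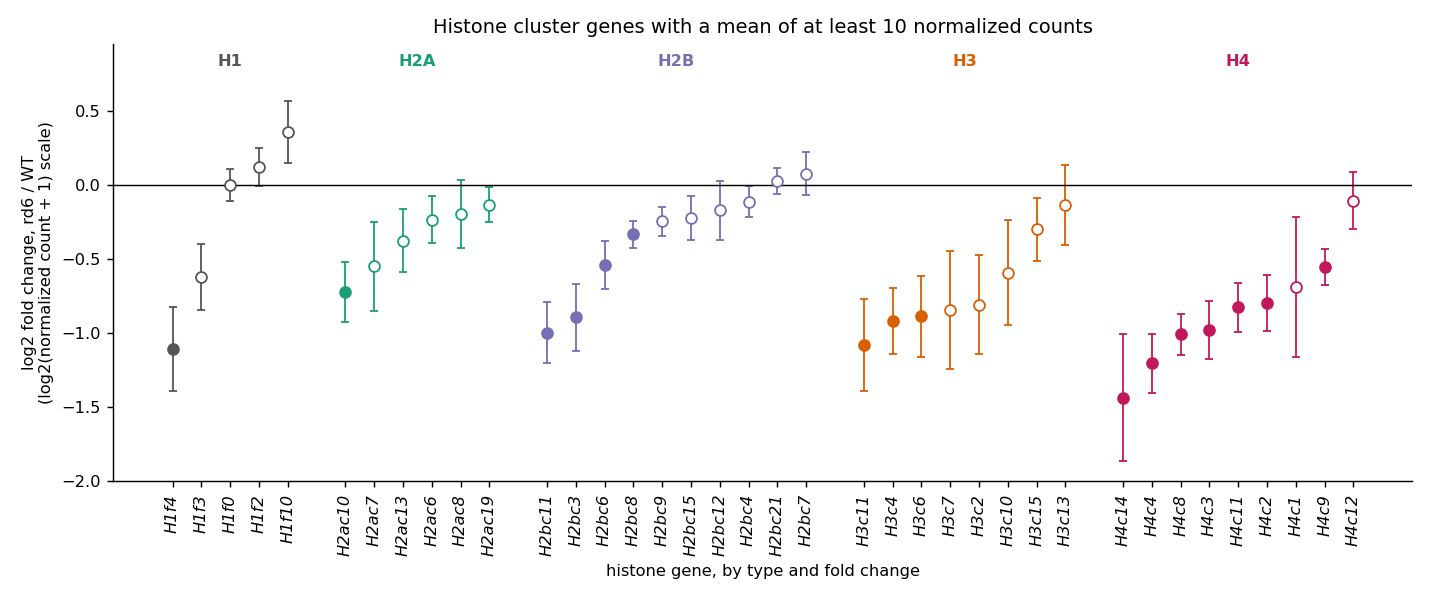
Log2 fold change, rd6 over WT (y axis, on log2(normalized count + 1)), of the 38 members tested, grouped by histone type (x axis); points are genes with their SE, filled where q was below 0.05. All 9 H4, 8 H3 and 6 H2A genes lie below 0, with 7, 3 and 1 of them called, whereas H1 and H2B genes lie on both sides.

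H4 is the most conserved of the core histones, and its many gene copies encode the same protein. *H4c8* (chr13:23531050-23531519, plus strand, a single exon) was the H4 gene with the smallest q. It ranged from 475 to 732 normalized counts (median 582) in the 6 WT libraries and from 222 to 345 (median 310) in the 6 rd6 libraries. All rd6 libraries were therefore below all WT libraries, and the means were 592 ± 112 and 293 ± 45.8 (SD, n = 6 each). The log2 difference was -1.01 (SE 0.14, limma q = 0.000204).

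*H4c4* (chr13:23581598-23582735, plus strand) shared none of its 100-base windows exactly with another annotated transcript. Near matches and copies outside the annotation were not searched, so it was not shown that its reads are its alone. *H4c4* ranged from 29.6 to 45.4 (median 31.9) in WT and from 9.69 to 18.1 (median 14.9) in rd6, and the groups were apart. Its log2 difference was -1.21 (SE 0.20, limma q = 0.000809). *H4c14*, the H4 gene on chromosome 3, likewise shared none of its windows and had 14.4 to 30.0 normalized counts (median 22.6) in WT against 0.994 to 12.6 (median 10.3) in rd6. It had the largest difference of the 38 members, at -1.44, with the widest error among the H4 genes called (SE 0.43, limma q = 0.0283). Its value in rd6 replicate 6 was a single read, against 8 to 14 reads in the other rd6 libraries. With a library left out, *H4c14* ran from -1.57 to -1.02 and *H4c4* from -1.28 to -1.11, so this rank was not kept throughout.

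The other 4 H4 genes called had smaller differences. *H4c3* went from 31.1 to 42.1 (median 37.4) in WT to 12.6 to 28.8 (median 18.0) in rd6, with a log2 difference of -0.98 (SE 0.19, limma q = 0.00296), and *H4c11* from 85.8 to 136 (median 111) to 39.7 to 73.2 (median 66.4), with -0.83 (SE 0.17, limma q = 0.00339). Neither gene overlapped between the groups. *H4c9*, the most abundant H4 gene, ranged from 1127 to 1725 (median 1413) in WT and from 740 to 1176 (median 968) in rd6, so that the highest rd6 library reached into the WT range. Its log2 difference was -0.55 (SE 0.12, limma q = 0.00613). *H4c2* also overlapped, with 65.1 to 117 in WT and 32.5 to 67.0 in rd6 and a log2 difference of -0.80 (SE 0.19, limma q = 0.00959). An RNA gene, 4930558J22Rik, lies across *H4c2* on the opposite strand, and 71.8% of the windows of *H4c2* were shared with other genes. *H4c1* and *H4c12* did not pass the test, at -0.69 (SE 0.47, limma q = 0.323) and -0.11 (SE 0.19, limma q = 0.724).

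H3 carries the tail residues on which many chromatin marks are written. *H3c4* (chr13:23575763-23577011, plus strand) ranged from 270 to 402 (median 386) in WT and from 92.1 to 255 (median 223) in rd6, with no overlap. The log2 difference was -0.92 (SE 0.22, limma q = 0.00943). *H3c6* was far less abundant, with 13.6 to 29.6 (median 17.0) in WT and 5.81 to 13.4 (median 9.94) in rd6, and the groups were just apart. Its log2 difference was -0.89 (SE 0.27, limma q = 0.0315). *H3c11*, with a log2 difference of -1.08 (SE 0.31, limma q = 0.0233), ranged from 6.19 to 21.8 in WT and from 4.11 to 8.95 in rd6, and overlapped.

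The most abundant H3 gene was not called. *H3c15*, one of the H3 genes of the chromosome 3 cluster, ranged from 363 to 637 (median 447) in WT and from 212 to 506 (median 416) in rd6. The ranges overlapped widely and the log2 difference was -0.30 (SE 0.21, limma q = 0.343). *H3c2*, *H3c7*, *H3c10* and *H3c13* were not called either, with log2 differences of -0.81 (SE 0.33), -0.84 (SE 0.40), -0.59 (SE 0.35) and -0.14 (SE 0.27) and none with limma q below 0.05.

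**Figure D2:**
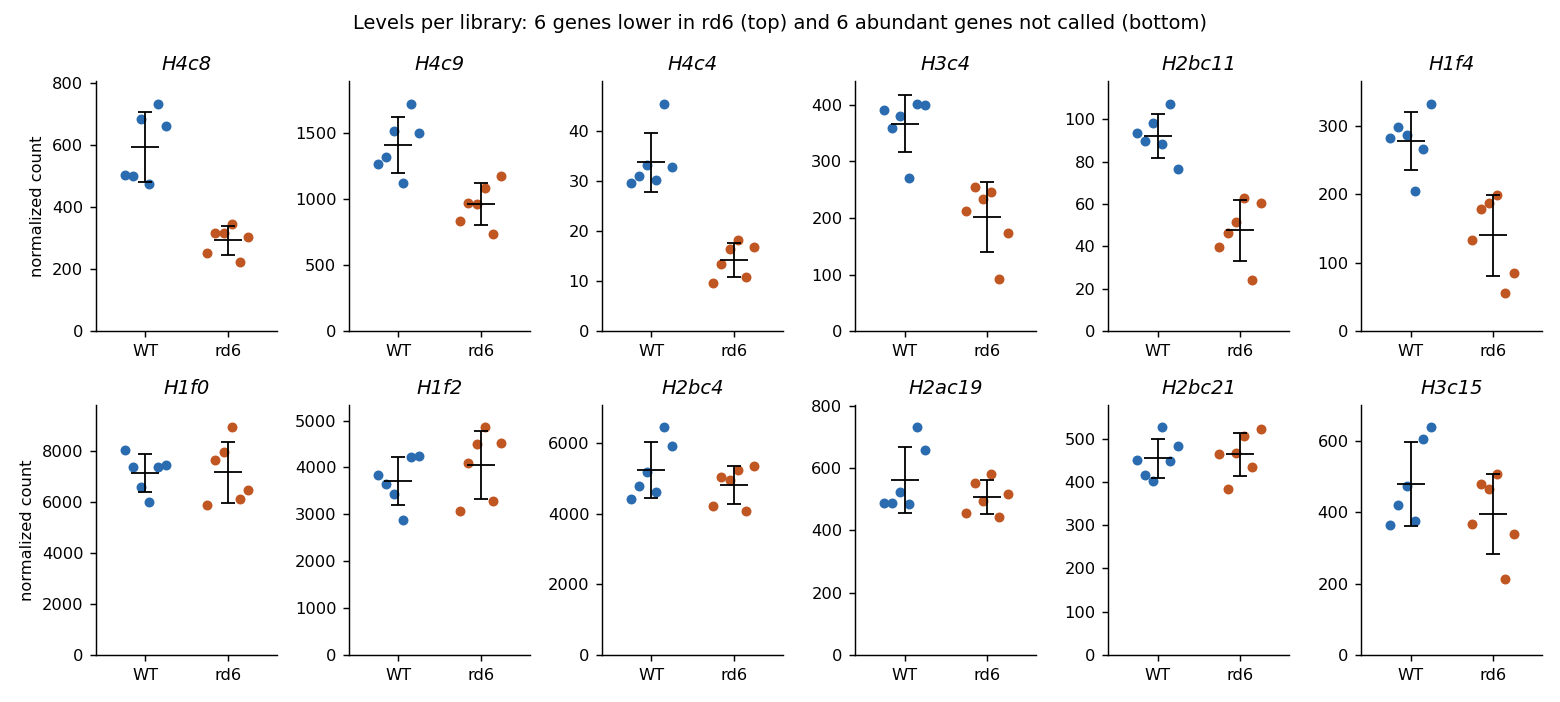
Normalized counts (y axis, linear, from 0) of 6 members called lower in rd6 (top row) and 6 abundant members not called (bottom row) in the 6 WT and 6 rd6 libraries (x axis); points are libraries, horizontal bars are means and error bars are SDs. In the top row the rd6 points lie below all WT points except for H4c9, where 740 to 1176 meets 1127 to 1725, and in the bottom row the ranges overlap in all 6 genes.

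H2B pairs with H2A in the nucleosome, and most H2B genes of the clusters stand head to head with an H2A gene. *H2bc11* ranged from 76.4 to 107 (median 91.7) in WT and from 24.4 to 63.0 (median 48.9) in rd6, without overlap. The log2 difference was -0.998 (SE 0.21, limma q = 0.00399). *H2bc3* was also apart, with 24.3 to 47.6 (median 31.2) in WT and 10.8 to 22.0 (median 19.2) in rd6, and a log2 difference of -0.90 (SE 0.23, limma q = 0.0128).

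The 2 other H2B genes called were more abundant and overlapped between the groups. *H2bc6* had 696 to 1077 (median 861) in WT and 398 to 756 (median 635) in rd6, with a log2 difference of -0.54 (SE 0.16, limma q = 0.0280). It shares exon sequence on the same strand with *H1f4*, so some of their reads cannot be told apart. *H2bc8* had 562 to 784 (median 653) in WT and 436 to 591 (median 533) in rd6, and the smallest difference of the 16, at -0.34 (SE 0.09, limma q = 0.0208).

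*H2bc4* was the most abundant core histone gene, and it was not called. It ranged from 4428 to 6445 (median 4981) in WT and from 4070 to 5362 (median 4994) in rd6, with a log2 difference of -0.11 (SE 0.10, limma q = 0.460). *H2bc21*, with 403 to 526 (median 450) in WT and 385 to 524 (median 467) in rd6, lay at 0.03 (SE 0.09, limma q = 0.852). Both are members in which no stem-loop was found in the annotated transcript. *H2bc7*, *H2bc9*, *H2bc12* and *H2bc15* had log2 differences of 0.07 (SE 0.14), -0.25 (SE 0.10), -0.17 (SE 0.20) and -0.22 (SE 0.15), with limma q from 0.0875 to 0.753.

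Of the H2A genes, *H2ac10* alone was called. It ranged from 21.7 to 42.5 (median 33.5) in WT and from 13.4 to 24.7 (median 19.9) in rd6, with some overlap, and its log2 difference was -0.72 (SE 0.20, limma q = 0.0219). Other genes held 79.3% of the 100-base windows of *H2ac10*. *H2ac19*, the most abundant H2A member, had 484 to 731 (median 506) in WT and 443 to 581 (median 506) in rd6. The medians were thus alike, and the log2 difference was -0.13 (SE 0.12, limma q = 0.438), or -0.17 to -0.05 with a library left out. *H2ac6*, *H2ac7*, *H2ac8* and *H2ac13* lay at -0.24 (SE 0.16), -0.55 (SE 0.30), -0.20 (SE 0.23) and -0.38 (SE 0.21) and did not pass, with limma q from 0.209 to 0.568. Annotated antisense transcripts overlap the exons of all 14 H2A members, and all 100-base windows of *H2ac19* occur in other genes too, so that H2A counts are the least certain of the 5 types.

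Among the linker histone genes, *H1f4* alone was called. *H1f4* (chr13:23620629-23622558, minus strand) ranged from 205 to 333 (median 285) in WT and from 56.0 to 200 (median 156) in rd6, with no overlap. The means were 279 ± 42.5 and 140 ± 59.1 (SD, n = 6 each) and the log2 difference was -1.11 (SE 0.28, limma q = 0.0135). *H1f3* had 218 to 327 (median 296) in WT and 99.3 to 264 (median 202) in rd6, and with a log2 difference of -0.62 (SE 0.22, limma q = 0.0613) it lay just outside the threshold. It was called lower when WT replicate 4 or rd6 replicate 2, 3 or 4 was left out.

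The other linker histone genes were not called. *H1f0* encodes the replacement linker histone of non-dividing cells and was the most abundant member, with 5975 to 8024 (median 7374) in WT and 5875 to 8909 (median 7056) in rd6. Its log2 difference was -0.00 (SE 0.11, limma q = 0.987). *H1f2* ranged from 2874 to 4236 (median 3745) in WT and from 3077 to 4851 (median 4300) in rd6, at 0.12 (SE 0.13, limma q = 0.535). It carries a stem-loop of the same letters as that of *H1f4* shown above. *H1f10*, a linker histone encoded outside the clusters, had the largest positive value of the 38 members, at 0.36 (SE 0.21, limma q = 0.243), with 29.0 to 42.1 in WT and 28.6 to 66.8 in rd6. With a library left out, *H1f10* ran from 0.23 to 0.47 and *H1f2* from 0.05 to 0.20.

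The remaining 17 members had means of 1.25 to 9.53 normalized counts and were under the limit of the fit. The rd6 mean was below the WT mean in 14 of them. In a second limma fit of the 22917 genes averaging 1 or more, 1 of the 17 was lower and 0 were higher (2 and 0 at an unadjusted p below 0.05, and 1 lower and 0 higher at q below 0.05 with DESeq2), where 8.84% of the genes in that fit were lower. That member was *H3c8*, which had 12.4 to 22.1 normalized counts (median 15.6) in WT and 0.903 to 4.77 (median 3.00) in rd6. These values stand for 95 reads in the 6 WT libraries together and 18 in the 6 rd6 libraries. Its log2 difference was -2.16 (SE 0.30, limma q = 0.000240), the most negative of the 55 members, and its groups did not overlap, as in 0.835% of all genes with means between 1 and 10. A two-sided exact permutation test gave p = 0.00216, the smallest that 6 against 6 libraries allow, and DESeq2 gave q = 2.48e-06. The other 16 were not called. For comparison, 3 reads stand for 2.71 to 3.32 normalized counts, depending on the library. *H2ac4* had the highest mean of the 16, at 9.04, and a log2 difference of -0.05, followed by *H1f5* (6.72, -0.54), *H4c6* (6.10, -0.47), *H2ac12* (4.82, -0.80) and *H2bc13* (4.72, -0.50). *H2ac12* was the only one of the 16 with p below 0.05 in the exact permutation test (p = 0.0281, not adjusted). *H2ac20*, *H1f11-ps*, *H2ac11*, *H2ac21*, *H2bc1* and *H1f6* had means from 3.01 to 4.51 and log2 differences of -0.21, 0.77, -0.56, -0.74, -0.13 and 0.05. The means of *H2bc14*, *H3c3*, *H2ac15*, *H2ac5-ps* and *H2ac14* were from 1.25 to 2.49.

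Levels per kb of annotated exon set genes of different length side by side, as far as the annotated lengths hold. In WT, the mean was 4522 normalized counts per kb for *H2bc4*, 3467 for *H1f0*, 2378 for *H1f2*, 1940 for *H4c9*, 1260 for *H4c8*, 1068 for *H2bc8*, 1064 for *H2ac19* and 469 for *H3c15*. In rd6, the same order of genes gave 4165, 3483, 2599, 1324, 623, 848, 961 and 387. By its mean, *H4c8* stood above *H2bc8* and *H2ac19* in WT and below both in rd6, with single libraries of *H4c8* and *H2bc8* overlapping in both genotypes. Cluster transcripts were counted over whole annotated exons, and a level per kb would be too low where the annotation runs past the stem-loop at which the mRNA ends. It runs 840 of 1560 bases past it in *H1f2*, 330 of 727 in *H4c9*, 155 of 618 in *H2bc8* and 46 of 470 in *H4c8*. The order of these genes, and the switch of *H4c8* with *H2bc8*, therefore depend on the length used.

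The summed counts of each type, over all its members, followed the same order. The H4 sum was 2353 ± 369 in WT and 1458 ± 225 in rd6 (SD, n = 6 each), from 1903 to 2873 against 1102 to 1704, with no overlap and a log2 ratio of the means of -0.69. For H3, the sum was 982 ± 173 in WT and 674 ± 189 in rd6, a log2 ratio of -0.54. The H2A sum was 931 ± 129 and 803 ± 108 (-0.21), the H2B sum 7801 ± 1064 and 6883 ± 797 (-0.18), and the H1 sum 11445 ± 1251 and 11603 ± 1929 (0.02). The differences in these 3 sums were no larger than the SD of the WT libraries.

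These sums rest on few genes. H1 genes took 51.3% of all member counts and H2B genes 32.7%, while H4, H2A and H3 genes took 8.48%, 3.86% and 3.69%. Over all 55 members the sum was 23512 ± 2540 in WT and 21421 ± 3075 in rd6, a log2 ratio of -0.13. Without *H1f0*, *H2bc4* and *H1f2*, which left 28.6% of the counts, it was 7450 ± 961 in WT and 5395 ± 835 in rd6, a log2 ratio of -0.47. Leaving out the most abundant gene of each type gave -0.93 for H4 (without *H4c9*), -0.85 for H3 (without *H3c15*), -0.32 for H2A (without *H2ac19*), -0.31 for H2B (without *H2bc4*) and 0.04 for H1 (without *H1f0*). Without its 3 most abundant members, the log2 ratio was -0.77 for H4, -0.90 for H3, -0.44 for H2A, -0.14 for H2B and -0.73 for H1.

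**Figure D3:**
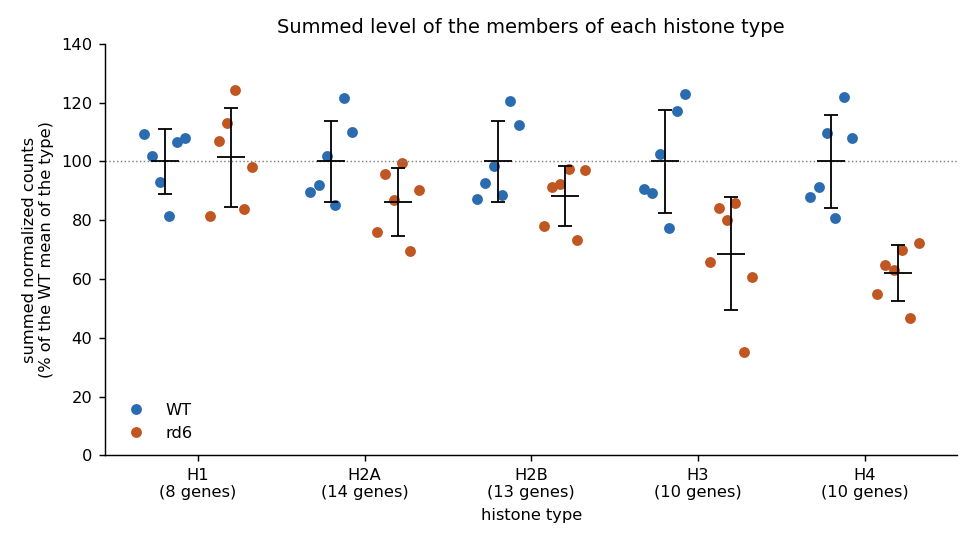
Summed normalized counts of all members of each histone type (x axis), as a percentage of the WT mean of that type (y axis, from 0), in the 6 WT and 6 rd6 libraries; points are libraries, horizontal bars are means and error bars are SDs. The H4 sums of rd6 (1102 to 1704 normalized counts) lie below those of WT (1903 to 2873), and the H1 sums of the genotypes cover much the same range.

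One rd6 library stood at the low end in most members. The rd6 replicate 5 had the lowest value of the 12 libraries in 23 of the 38 members, and its median log2 deviation from the WT mean was -1.43 over the 16 members called and -0.57 over the 22 others. The other 5 rd6 libraries lay between -0.91 and -0.60 over the 16, and between -0.28 and -0.01 over the others. WT replicate 5 was the highest of all in 18 members. Over all genes, no library departed from the WT mean by more than 0.02 in the median. Without rd6 replicate 5, the same 16 members were lower, 8 of them by at least 0.81 on the log2 scale, and the median log2 difference of the 38 was -0.36. Some members not called moved by over 1.5 times without it, among them *H3c15* (to -0.13), *H2ac7* (to -0.29) and *H3c10* (to -0.29), and *H2bc4* moved to -0.05 without WT replicate 5. That library also held the most rod photoreceptor RNA of the rd6 group, with a summed level of 65254 over 13 rod genes against 18162 to 24461 in the other rd6 libraries and 34409 to 74862 in WT. The part of rod RNA in the histone values of that library was not tested. WT replicate 3 mattered more for the count, which was 11 without it (7 by at least 0.81), the calls of *H2ac10*, *H2bc6*, *H3c6*, *H3c11* and *H4c14* being lost.

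**Figure D4:**
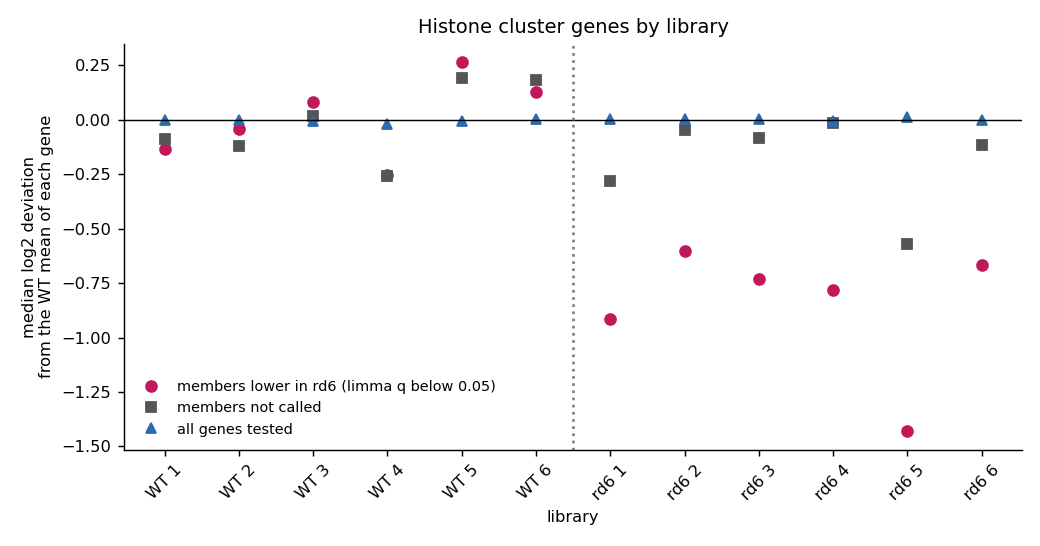
Median log2 deviation from the WT mean of each gene (y axis) in each of the 12 libraries (x axis), over the 16 members called lower (circles), the 22 members not called (squares) and all genes tested (triangles). Rd6 replicate 5 is lowest in both member groups, at -1.43 and -0.57, whereas all genes stay within 0.02 of 0.

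Most members lie in 3 groups on mouse chromosome 13, of 11, 5 and 29 members in order of position, and 1 group of 7 on chromosome 3. Of the genes tested, 2 of 6 were lower in the first group of chromosome 13, 2 of 3 in the next, 11 of 22 in the last, 1 of 5 on chromosome 3 and 0 of the 2 elsewhere (*H1f0* and *H1f10*), where 11.6% of all genes were lower. With so few genes, the counts on chromosome 3 and elsewhere cannot be set apart from that share. Members that were called stood beside members that were not. On chromosome 13, *H1f4* and *H1f2* lie in the same group, as do *H4c8* and *H2bc4*, and on chromosome 3 *H4c14* was called beside *H2ac19*, *H2bc21*, *H3c13* and *H3c15*, which were not.

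**Figure D5:**
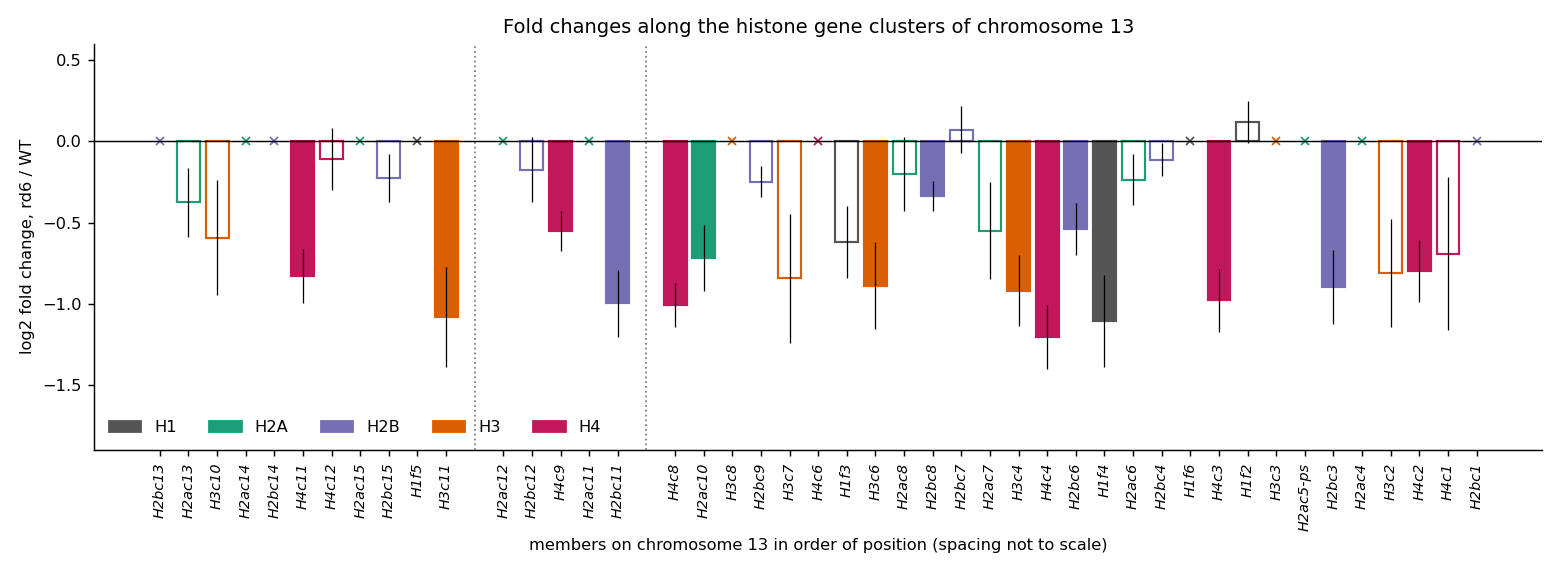
Log2 fold change, rd6 over WT (y axis, on log2(normalized count + 1)), of the members on chromosome 13 in their order along the chromosome (x axis, spacing not to scale), coloured by histone type; bars are values with SE, filled where q was below 0.05, crosses mark members under the limit of the fit, and dotted lines part the 3 groups. Called and uncalled members stand side by side in all 3 groups, and the last group holds 11 of the called members.

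In 11 places, 2 members start head to head on opposite strands, 10 of them an H2A with an H2B gene 175 to 301 bases apart. The window in front of *H2bc8*, from 250 bases before its start to 50 after it (RefSeq, GRCm38.p6, chr13:23571150-23571449, plus strand), also holds the start of *H2ac8* on the other strand, 175 bases away. It is printed with 3 motifs in capitals on either strand: the octamer ATTTGCAT, which is bound by OCT1, the TATA element TATAAA, and CCAAT.
H2bc8: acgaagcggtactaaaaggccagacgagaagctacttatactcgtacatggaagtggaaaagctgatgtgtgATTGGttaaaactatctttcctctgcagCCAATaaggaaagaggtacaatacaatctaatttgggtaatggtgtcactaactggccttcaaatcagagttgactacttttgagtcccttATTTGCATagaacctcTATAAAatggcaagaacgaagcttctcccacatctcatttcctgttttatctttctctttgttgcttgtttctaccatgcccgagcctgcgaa

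The window of *H4c4* (chr13:23581318-23581617, plus strand), the H4 gene with the most negative value on chromosome 13, is given for comparison, with the same motifs in capitals. It holds TATAAA and CCAAT and no octamer.
H4c4: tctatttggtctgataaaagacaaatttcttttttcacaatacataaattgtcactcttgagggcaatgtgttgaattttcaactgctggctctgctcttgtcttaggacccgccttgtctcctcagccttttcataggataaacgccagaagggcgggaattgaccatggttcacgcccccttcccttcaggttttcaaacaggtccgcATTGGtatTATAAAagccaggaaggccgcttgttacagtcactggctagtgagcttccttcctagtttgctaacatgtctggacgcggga

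Of the 55 members, 48 had such a window, and *H2bc6* had 2. The octamer occurred in 11 of the 48, 5 of 12 H2A and 6 of 11 H2B genes (in *H2bc6* in 1 of its 2 windows), in none of the H1, H3 and H4 windows, and in 559 of 32802 other promoters (1.70%). TATAAA occurred in 27 of 48, against 13.6% of the others, and CCAAT in 40 of 48, including all H2A, H2B and H3 windows and 3 of 9 for H4, against 37.3%. A match is a description of letters and not of binding.

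Where both genes of a head-to-head pair were tested, their log2 differences were -0.34 for *H2bc8* (called) and -0.20 for *H2ac8*, -0.11 for *H2bc4* and -0.24 for *H2ac6*, and 0.07 for *H2bc7* and -0.55 for *H2ac7*. The pair of *H2bc9* and *H3c7*, whose starts are 659 bases apart, lay at -0.25 and -0.84. No pair had both genes called. The partners of *H2bc11* and *H2bc3*, which were called, were under the limit of the fit.

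Members with a stem-loop in the annotated transcript were lower in 14 of 27 cases (median log2 difference -0.69), and the 11 without a match in 2 (*H2ac10* and *H3c11*, median -0.14), the latter near the 11.6% of all genes. Some of those 11 are annotated over little more than the coding sequence, such as *H2ac10* (399 bases), *H3c11* (411) and *H4c12* (312). A stem-loop past that sequence could not be found, so this split does not separate mRNAs with a stem-loop from mRNAs without one. Of the 6 tested H4 genes with the GGCCCT stem, 5 were lower, as were both with GGTCCT, and of the 19 with GGCTCT 7 were lower. Because the first 2 stems occurred in H4 genes only, stem and histone type cannot be told apart. The calls were not limited to genes whose sequence is shared, since 6 of 13 members with under 20% of their 100-base windows in another gene were lower, and 10 of 25 of the others.

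Genes that act on histone mRNA and histone protein were examined next, as lists named after their function. Of 15 tested genes of histone transcription and mRNA processing, 2 were lower and 1 was higher with limma, where 11.6% and 11.4% of all genes were, and the median log2 difference was -0.14. With edgeR and DESeq2, 3 were lower and 1 was higher, where 11.7% and 8.38% of all genes were lower. With 15 genes, these counts cannot be set apart from the shares of all genes. *Hinfp*, which encodes the factor that binds H4 gene promoters, had -0.33 (SE 0.09, limma q = 0.0169). *Mif4gd*, whose protein links SLBP to translation, had -0.49 (SE 0.06, limma q = 5.13e-05), and *Lsm11*, a part of the U7 particle that cuts histone pre-mRNA, had 0.50 (SE 0.10, limma q = 0.00397). *Slbp* itself (-0.07, limma q = 0.556) and *Npat*, the co-activator of histone loci (-0.14, limma q = 0.217), were not called. *Zfp473*, a zinc finger gene of histone pre-mRNA processing with a mean of 6.06, was under the limit of this fit, and it was lower in the fit of genes averaging 1 or more (-1.05, SE 0.32, limma q = 0.0352) and with DESeq2 (q = 0.0459). The summed level of the list was 15963 to 17727 in WT and 14345 to 15477 in rd6, without overlap. A sum weighs its most abundant genes most, and how often sums of other gene lists part in this way was not tested.

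Replacement histones, which are made outside S phase, showed 0 lower calls among 9 genes with limma, edgeR and DESeq2 (1 at an unadjusted p below 0.05 with each). Limma and edgeR each called 2 higher and DESeq2 called 3. With 9 genes, neither count can be set apart from the 11.6% lower and 11.4% higher of all genes. *H3f3a*, one of the genes for H3.3, was higher at 0.24 (SE 0.06, limma q = 0.00753), as was *Macroh2a2*, a macroH2A gene, at 0.54 (SE 0.14, limma q = 0.0125). *H3f3b*, the other H3.3 gene, had 0.30 (limma q = 0.0617). Of 13 histone chaperone genes, *Anp32e*, which removes H2A.Z, was lower, at -0.34 (SE 0.10, limma q = 0.0319), and 0 were higher with limma, while edgeR and DESeq2 each called 1 higher (1 at an unadjusted p below 0.05 with limma). With 13 genes, these counts cannot be set apart from the shares of all genes either.

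Among 18 genes of cycling cells, limma, edgeR and DESeq2 each called 1 lower and 0 higher (2, 2 and 3 lower and 0 higher at an unadjusted p below 0.05). Of all genes, 11.6%, 11.7% and 8.38% were lower with these tests, and 1 of 18 cannot be set apart from those shares. The median log2 difference of the 18 was 0.08. The gene called was *E2f1*, a transcription factor of the entry into S phase, which ranged from 325 to 431 (median 375) in WT and from 150 to 237 (median 201) in rd6, without overlap. Its log2 difference was -0.95 (SE 0.12, limma q = 0.000161). *Mki67*, a marker of proliferation, varied from 10.8 to 567 among the WT libraries alone and was not called (limma q = 0.396). The summed level of the list was 3212 to 5562 in WT and 3234 to 3781 in rd6. WT replicate 4, with the highest sum, was the lowest library in 2 of the 38 histone members.

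Markers of other cells moved with genotype too. Of all genes tested with limma, 11.4% were higher and 11.6% were lower. Of 16 microglia and macrophage genes, 15 were higher in rd6, those with the largest log2 differences being *P2ry13*, *Trem2*, *P2ry12*, *C1qa*, *Tyrobp*, *Ctss*, *C1qc* and *C1qb* (3.71 to 4.67), with summed levels of 15447 to 21870 in WT and 31736 to 56118 in rd6. With limma, endothelial genes were higher in 4 of 6, and with edgeR and DESeq2 in 5 and 6 (*Flt1*, *Plvap*, *Cdh5* and *Kdr* with limma, with sums of 4450 to 9041 in WT and 7976 to 17733 in rd6). All 13 rod genes had log2 differences below 0, with a median of -0.95. With limma and DESeq2, 4 were lower, where 11.6% and 8.38% of all genes were (10 at an unadjusted p below 0.05 with limma). With edgeR 2 of the 13 were lower, near the 11.7% of all genes. The rod sums were 34409 to 74862 in WT and 18162 to 65254 in rd6. In addition, 12 RNAs that lack a poly(A) tail or are retained in the nucleus were summed, at 3425 to 13931 in WT and 3151 to 6104 in rd6. Only 3 of the 12 averaged 10 normalized counts or more, so the sum is no measure of how much RNA without a poly(A) tail a library held. These 3 were tested and differed in direction, with log2 differences of 0.47 for *Rn7sk*, 0.78 for *Rn7s1* and -0.73 for *Malat1*. Limma and edgeR called 0 of them (1 lower and 1 higher at an unadjusted p below 0.05), and DESeq2 called *Malat1* lower. The part of these RNAs and cells in the histone values was not tested.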

How the data were processed

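RPE was taken from both eyes per sample, and per the labels total RNA was made into stranded libraries, sequenced and mapped to mm10. Reads were aligned and counted with Rsubread at what the study's methods call standard parameters. How these treated strand and reads with several places is not spelled out there, so antisense and near-identical histone genes stay uncertain. The deposited values are normalized counts, a signal that the authors made by dividing gene counts by DESeq2 size factors. Steps between low values gave back whole reads in 100% of values (tolerance 1e-08).

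Of 28596 rows, 5 repeated ones were dropped. Genes with a mean of at least 10 were tested as log2(value + 1) with limma 3.58.1 (R 4.3.3, trend), with genotype as the only term and Benjamini-Hochberg q over all 17768. Fold changes on this scale understate those of low genes. Calls had q below 0.05, and a stricter limit added a log2 difference of at least 0.81. The recovered reads were also tested with edgeR 4.0.16 (quasi-likelihood) and DESeq2 1.42.0, and their totals differ little (28907262 to 33152725). Other alternatives were the pseudocount, the filter on low values, the scaling, a replicate block and each library left out. For members under the filter, an exact permutation test was used. Stem-loops were searched in GENCODE transcripts (GRCm38) and motifs in RefSeq promoters. The fitting was tested on simulated data.

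Members and gene lists were chosen with earlier results of these data known. All 55 members are described by count, and those named were the 3 of highest mean in each type, all members called, those with the largest rise and fall, those outside the clusters or without a stem-loop match, those next to the mean limit, and list genes that were called (at most 8 a list, by size of change, with single rod genes not reported here). The other genes named (*Slbp*, *Npat*, *H3f3b* and *Mki67* among the lists, and further uncalled members) fall outside this rule and were chosen after their values were seen. The study calls the samples independent replicates, and no source used here says whether they share litters, so p-values measure only the spread between these samples. No library was a repeat of another, as the chi-square statistic per gene was at least 8.86 for each pair. The columns that hold the authors' own fold changes and p-values were not used.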

Additional observations from a re-analysis of the deposited data

Results flagged for a closer look

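Of 88 groups of 6 libraries checked, 4 had a library whose gap to the next was a larger share of the range of its group than the 95% limit of Dixon's test, which chance passes in about 1 of 20 groups. *H4c4* in WT had a ratio of 0.772, as WT replicate 5 was the highest at 45.4, the next was 33.2 and the lowest was 29.6. *H3c4* in WT had 0.676, with WT replicate 4 lowest at 270 and the next at 359. *H3c6* in WT had 0.673, with WT replicate 1 highest at 29.6 and the next at 18.8. *H4c11* in rd6 had 0.654, with rd6 replicate 5 lowest at 39.7 and the next at 61.6. All 4 genes were called lower in rd6. Without the library named, *H4c4*, *H3c4* and *H4c11* were still called, whereas *H3c6* was not (log2 difference -0.75, limma q = 0.0685 without WT replicate 1).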

How the results depend on the processing

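No alternative called a member higher. The number called lower was 16 with pseudocounts of 0.1 and 10, with TMM or upper-quartile scaling, with edgeR and with no filter (where *H3c6* was lost and *H3c8* gained), and 17 with DESeq2 and with a mean of at least 1. It was 12 (7 by at least 0.81 on the log2 scale, median log2 difference -0.34) among the 29 members with at least 10 in every library, and a pseudocount of 10 left 5 at that size, since fewer genes or smaller folds are then possible. Leaving out each library gave 11 to 17 (7 to 12 of that size, median -0.61 to -0.36). Under upper-quartile scaling, 39.4% of all calls were lower instead of 50.5%. The replicate numbers did not pair the libraries (mean correlation of same-numbered deviations -0.25, from -0.74 to 0.31 over 6 pairs), and 0 WT libraries correlated best with their own number. With a replicate block, 9 members were lower (7 of that size). *H1f4*, *H2bc11*, *H3c4*, *H4c2*, *H4c3*, *H4c4*, *H4c8*, *H4c9* and *H4c11* kept their call under all alternatives in which they were tested, whereas *H3c6* lost it in 9 of 21, *H2bc6* in 6, *H4c14* in 4, *H2ac10* and *H3c11* in 3, and *H2bc3* and *H2bc8* in 1. Among the members tested, uncalled values that changed sign were *H1f0*, at 0.0352 with upper-quartile scaling, 0.0055 with edgeR, 0.0067 with DESeq2 and -0.0699 to 0.0502 with a library left out, and *H2bc21*, at -0.00899 to 0.0800 with a library left out. Under the filter, *H2ac4* (-0.05) was at 0.07 and *H1f6* (0.05) at -0.21 with DESeq2. The log2 ratios of the sums stayed within -0.75 to -0.62 for H4 and -0.62 to -0.41 for H3, within -0.26 to -0.15 for H2A, -0.22 to -0.12 for H2B and -0.05 to 0.08 for H1 with a library left out. Depth limits the 17 members under a mean of 10.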

Other observations

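Some histone genes of the table fell outside the naming rule, most because they carried older symbols. Of these, *Hist1h4m* (log2 difference -1.04, limma q = 0.037), *Hist1h2br* (-0.57, limma q = 0.017) and *Hist1h2bq* (-0.48, limma q = 0.034) were lower in rd6, and *Hist1h4n*, *Hist1h2al*, *H2aw* and *H2bu2* were not called.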
